A study of Mus musculus with 6 samples.

Results

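The 3 mouse Runx genes, Runx1, Runx2 and Runx3, were examined as loci in 2 lists of chromatin windows bound by Runx2 in chondrocytes. A window belonged to them when the list named Runx1 or Runx3 beside it, when it overlapped such a window of the other list by at least 1 bp, or, for Runx2, which neither list named, when it lay within 500 kb of the gene. This gave 6 of the 1000 windows with interleukin-1β (IL-1β) and 4 of the 1000 windows in normal culture. They fell on 6 sites, and 4 of these sites were in both lists.

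The study profiled Runx2 by chromatin immunoprecipitation with sequencing (ChIP-seq) in primary chondrocytes, the cells of cartilage, from 5-day-old C57BL/6 mice that carry a biotin and FLAG tag on Runx2. The labels give 6 libraries, 1 per group: anti-FLAG, mouse IgG and input DNA from cells cultured with IL-1β, an inflammatory cytokine, and the same 3 from cells in normal culture. All groups carry the tagged Runx2, and the antibody is directed at the tag and not at Runx1 or Runx3. No library came from cells without the tag, so unspecific anti-FLAG signal cannot be told apart from Runx2 binding here. Each list came from 1 anti-FLAG library against the input of its own condition and numbers 1000 windows of 100 bp, with no score, fold enrichment or read count. The depth behind a window is therefore unknown. With 1 library per condition there is no replicate error either, so differences given here are between 2 libraries and were not tested. A gene not named here may still have been bound further down the longer set of calls that each list heads.

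Runx proteins bind DNA through the runt domain, together with the partner Cbfb, at the sequence TGTGGT or TGCGGT. Runx2 drives chondrocyte hypertrophy and bone formation, Runx3 acts with it in cartilage maturation and has roles in neurons and T cells, and Runx1 is best known as a regulator of blood stem cells. Each of the 3 genes has an upstream start, P1, and a downstream start, P2, and control of Runx genes by Runx proteins is known from other cells.

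The starts of the 3 genes share a sequence with Runx motifs, which is shown because the windows at the gene starts lie beside it. A stretch of 30 bases around the pair of motifs at each P1 is given 5′ to 3′ on the gene's strand from mm9, with the motif in capitals as it reads on that strand (ACCACA is TGTGGT on the other strand).
Runx1 P1, chr16:92826271-92826300, minus strand: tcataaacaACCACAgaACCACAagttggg
Runx2 P1, chr17:44951533-44951562, minus strand: tcacaaacaACCACAgaACCACAagtgcgg
Runx3 P1, chr4:134676417-134676446, plus strand: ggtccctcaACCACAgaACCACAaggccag

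The longest word common to the 3 starts had 18 bases, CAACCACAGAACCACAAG, and held both motifs with their first bases 8 bases apart. It occurred 3 times in the mm9 genome, counting both strands, once at each of these genes. The pair covered bases 20 to 33 after the start in Runx1 and 24 to 37 after the start in Runx2, and lay at bases -134 to -121 from the start of the deposited transcript in Runx3. In the 300 bp from 250 bp before to 50 bp after the most upstream start of 22380 protein-coding genes, a Runx motif was present in 21.5%, and a pair on 1 strand with this spacing in 0.0134%, which was 3 genes, Runx1, Runx3 and Card6. The whole word was in 0.00894%, which was Runx1 and Runx3. The word and the spacing were taken from these starts, so that the count of Runx1 and Runx3 was fixed in advance. The Runx2 pair is not among the promoters counted because that gene's record begins further upstream than P1.

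Runx2 windows lay next to this pair in Runx1 and Runx3 and not in Runx2. The middle of the Runx1 pair was 25 bp from the edge of a window at rank 392 in the IL-1β list, and 171938 bp from the closest window edge in the normal-culture list. For Runx3 the distance was 76 bp from the window at rank 546 with IL-1β, against 104 bp from the window at rank 679 in normal culture. For Runx2 the closest window edge was 557744 bp away with IL-1β and 557751 bp away in normal culture. None of these windows covered the pair itself, and a motif match here is a description of the sequence and not a measured binding site.

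Runx1 is a gene of 224600 bp on the minus strand of chromosome 16 (GENCODE M1, mm9: 92601712 to 92826311), with P2 128738 bp downstream of P1. The IL-1β list named it at 3 windows, at ranks 361, 392 and 945, and the normal-culture list at 1 window, at rank 160. Of all genes named, 1.79% had 3 or more windows in the IL-1β list, and 0.658% in the normal-culture list. The normal-culture window overlapped the IL-1β window at rank 361.

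This shared Runx1 site was intronic. The IL-1β window was at chr16:92654214-92654314, rank 361, and the normal-culture window at chr16:92654246-92654346, rank 160, with 68 bp in common. The site lay in intron 3 of the deposited transcript NM_001111023, which starts at P2, 43.3 kb downstream of that start. In the longer transcript NM_001111021, which starts at P1, it was in intron 5, 172 kb downstream. The sequence under both windows joined is given on the minus strand, since it held 1 Runx motif and 1 match to TGANTCA, the motif of AP-1 (the Fos and Jun factors), both in capitals.
Runx1 intron 5, chr16:92654214-92654346, minus strand: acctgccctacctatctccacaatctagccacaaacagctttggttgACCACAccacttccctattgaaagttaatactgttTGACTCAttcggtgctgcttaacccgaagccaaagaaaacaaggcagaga

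The Runx motif was 32 bp from the centre of the IL-1β window and 0 bp from the centre of the normal-culture window. The AP-1 match was 3.5 bp from the centre of the IL-1β window, while it was 35.5 bp from the centre in normal culture. Hence the IL-1β window was centred nearer to the AP-1 match and the normal-culture window on the Runx motif. The 2 centres were 32 bp apart. Over the 551 windows that the lists share, the median distance between centres was 20 bp, with quartiles of 10 and 38 bp, so that this offset was within the usual range of the 2 lists. AP-1 matches were present in 7.6% of IL-1β windows and 7.7% of normal-culture windows, and in 2.55% and 2.65% of 100 bp stretches 1000 bp to each side.

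The normal-culture list had no counterpart of the other 2 Runx1 windows. The one at rank 392 (chr16:92826159-92826259) was in exon 1 of NM_001111021, 0.101 kb downstream of the start, in the 5′ untranslated region. The 30 bases around its own Runx motif, 13 bp from its centre, are given because this motif is inside the window, unlike the pair.
Runx1 start-site window, chr16:92826182-92826211, minus strand: cactgaatgcaaACCACAggctttcgcaga

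The window at rank 945 (chr16:92773872-92773972) was in intron 2 of NM_001111021, 52.4 kb downstream of P1 and 76.3 kb upstream of P2. It held no Runx motif and no AP-1 match, and the nearest Runx motif was 594 bp from its centre. Of the IL-1β windows, 942 of 1000 had a Runx motif within 1000 bp of the centre, at a median distance of 31.0 bp. Its sequence is shown as the one window of these loci with no motif nearby.
Runx1 intron 2, chr16:92773872-92773972, minus strand: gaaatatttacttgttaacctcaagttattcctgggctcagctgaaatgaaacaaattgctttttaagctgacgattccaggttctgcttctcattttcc

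Absence of these 2 windows from the normal-culture list is to be read against their ranks. Of the IL-1β windows at ranks 301 to 400, 63.0% overlapped a normal-culture window, and at ranks 901 to 1000 the share was 24.0%. A window as low as rank 945 was thus more often unshared than shared.

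Runx3 is a gene of 57339 bp on the plus strand of chromosome 4 (GENCODE M1, mm9: 134676567 to 134733905), with P2 31844 bp downstream of P1. It was named at 2 windows in each list, and both sites were in both lists. Genes with 2 or more windows made up 9.07% of those named with IL-1β and 8.88% of those named in normal culture.

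The higher-ranked Runx3 site was at rank 220 with IL-1β (chr4:134702762-134702862) and at rank 111 in normal culture (chr4:134702776-134702876), with 86 bp in common. It was in intron 1 of the deposited transcript NM_019732, 26.3 kb downstream of its start. In relation to P2 it was upstream, by 5.60 kb with IL-1β and 5.58 kb in normal culture. The joined windows held no Runx motif, but the 100 bases that follow them held 2, shown in capitals.
Runx3 intron 1, chr4:134702762-134702876, plus strand: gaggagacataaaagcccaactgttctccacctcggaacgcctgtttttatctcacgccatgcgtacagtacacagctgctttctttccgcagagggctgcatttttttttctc
Runx3 intron 1, next bases, chr4:134702877-134702976, plus strand: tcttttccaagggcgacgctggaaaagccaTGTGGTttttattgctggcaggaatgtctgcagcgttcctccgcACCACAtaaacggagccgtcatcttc

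The nearest of these motifs was 97 bp from the centre of the IL-1β window and 83 bp from that of the normal-culture window. A second motif followed at 141 bp and 127 bp from the same centres.

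The other Runx3 site was P1 itself. The IL-1β window (rank 546, chr4:134676508-134676608) was centred 1 bp upstream of the deposited start, and the normal-culture window (rank 679, chr4:134676536-134676636) 27 bp downstream of it, in exon 1. They had 72 bp in common. Neither window held a Runx motif, and the nearest motif was 122 bp from the centre with IL-1β and 150 bp in normal culture. These nearest motifs belong to the pair, which is seen in the 160 bases before the deposited start, the end of which is under the IL-1β window.
Runx3 upstream of P1, chr4:134676400-134676559, plus strand: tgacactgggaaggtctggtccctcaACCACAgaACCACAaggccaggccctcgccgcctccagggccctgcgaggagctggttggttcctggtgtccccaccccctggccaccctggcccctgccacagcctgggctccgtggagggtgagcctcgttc

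Runx2, the factor that was precipitated, had no window at its own gene in either list. The gene spans 318811 bp on the minus strand of chromosome 17 (GENCODE M1, mm9: 44632936 to 44951746), with P2 77979 bp downstream of P1. There were 0 windows inside it and 0 within 100 kb, with IL-1β as in normal culture. Of 954 protein-coding genes over 200 kb long, 9.43% had a window inside in the IL-1β list, 8.81% in the normal-culture list and 12.5% in either, so that a gene of this size without a window was the common case.

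The closest window to Runx2 was the same site in both lists, 239 kb beyond the 3′ end of the gene and 558 kb from P1. It was at rank 126 with IL-1β (chr17:44393702-44393802) and at rank 145 in normal culture (chr17:44393695-44393795), with 93 bp in common. It lay in intron 4 of Clic5, a chloride intracellular channel family gene, 68.2 kb downstream of the Clic5 start, and both lists named Clic5 and not Runx2. The next windows were 938 kb upstream of Runx2, near the mitochondrial ribosomal protein gene Mrpl14, at rank 401 with IL-1β and rank 650 in normal culture. The Clic5 site is shown because it is the one site of the Runx2 locus. It held 1 Runx motif, 39 bp from the centre with IL-1β and 32 bp in normal culture.
Clic5 intron 4, chr17:44393695-44393802, plus strand: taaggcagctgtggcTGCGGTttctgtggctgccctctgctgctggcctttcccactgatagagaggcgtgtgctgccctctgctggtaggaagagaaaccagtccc

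**Figure D1:**
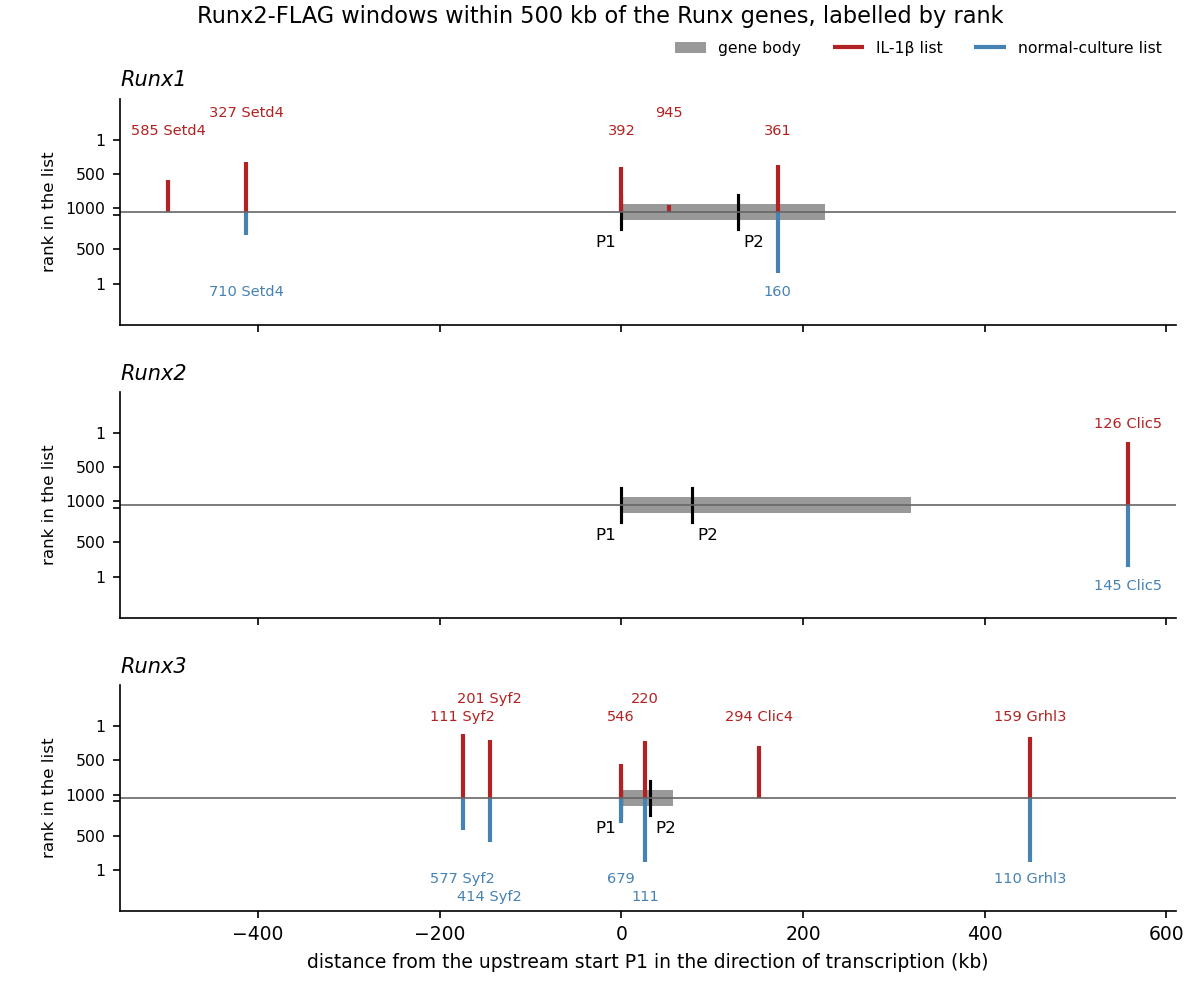
Windows within 500 kb of Runx1, Runx2 and Runx3, by distance from P1 in kb along the direction of transcription (x axis), with bars from the IL-1β list above the line and from the normal-culture list below it. Bar length gives the rank (longer is nearer to rank 1), each bar carries its rank and the name the list gives if it is another gene, and grey marks the gene body: Runx1 and Runx3 hold windows, whereas the one site at Runx2 is in Clic5, 558 kb from P1.

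Counted over the 3 loci, 4 of 6 windows with IL-1β and 4 of 4 windows in normal culture were shared, against 55.1% of all windows in either list (Wilson 95% interval 52.0 to 58.2%, which covers counting error only). That share depends on rank. In normal culture it was 77.0% at ranks 101 to 200, which hold the windows at ranks 111, 145 and 160. At ranks 601 to 700, which hold the window at rank 679, it was 53.0%. With IL-1β it was 89.0% at ranks 101 to 200 and 24.0% at ranks 901 to 1000. Both Runx1 and Runx3 were named in both lists. Of 21900 protein-coding genes, 4.0% were named in the IL-1β list, 4.06% in the normal-culture list and 2.11% in both. Runx1 and Runx3 also had a window inside the gene in both lists, as had 1.17% of 22380 protein-coding genes of the annotation, with 2.01% in the IL-1β list and 1.94% in the normal-culture list. Among genes over 200 kb, to which Runx1 and Runx2 belong, 5.77% had a window inside in both lists.

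The ranks of the shared sites moved in both directions. The rank number with IL-1β minus that in normal culture was 201 for Runx1 intron 5, 109 for Runx3 intron 1, -133 for Runx3 P1 and -19 for the Clic5 site, where a positive value is a lower place with IL-1β. Over the 551 shared windows the median absolute shift was 141, with quartiles of 54 and 280. All 4 shifts were below the upper quartile, and 1 was above the median. The intronic sites of Runx1 and Runx3 thus stood higher in normal culture and the Runx3 start higher with IL-1β, each by a shift of usual size for these lists.

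**Figure D2:**
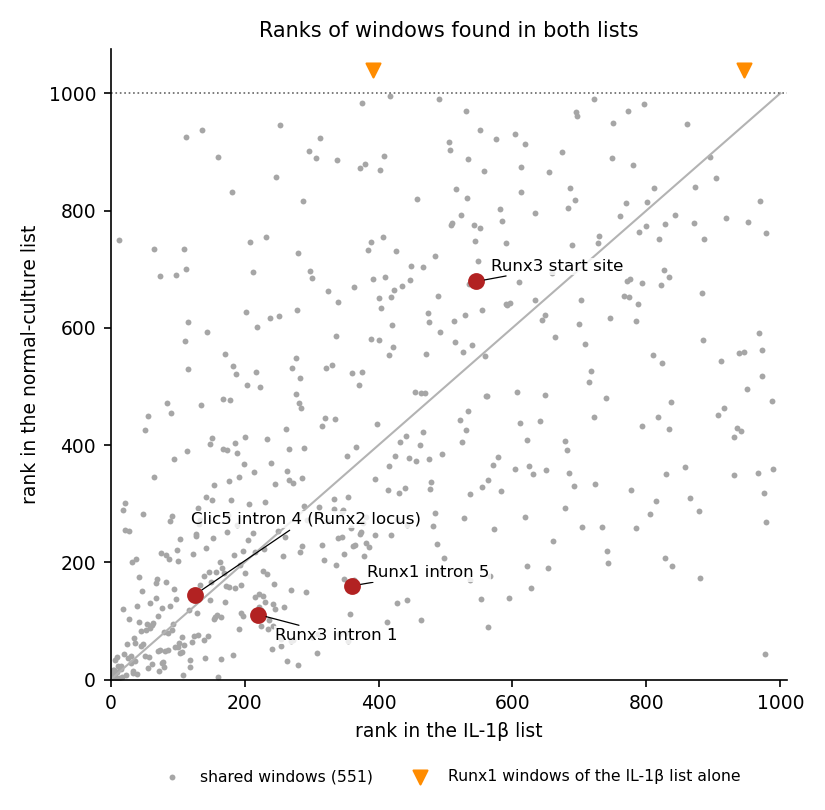
Rank in the IL-1β list (x axis) against rank in the normal-culture list (y axis) for the 551 windows that overlap between the lists (grey), with the diagonal of equal rank. Red points are the 4 shared sites of the Runx loci at ranks 361 and 160, 220 and 111, 546 and 679, and 126 and 145, and the triangles above the dotted line are the Runx1 windows at ranks 392 and 945, which had no counterpart in normal culture.

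By position, 2 of 6 windows with IL-1β and 1 of 4 in normal culture were centred within 500 bp of the start of the transcript named, against 17.5% and 14.9% of all windows. An intron held 4 of 6 windows with IL-1β and 3 of 4 in normal culture, against 33.2% and 22.4% of all windows. The transcript named in the normal-culture list is not always the nearest, so the intron shares of the 2 lists are not like measures. With so few windows, neither count can be set apart from its background.

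A Runx motif was within the window in 3 of 6 cases with IL-1β and 2 of 4 in normal culture, against 59.4% and 63.3% of all windows, and 9.4% and 8.1% of 100 bp stretches 1000 bp to each side. Among all windows within 500 bp of a start the share was 44.6% with IL-1β and 46.3% in normal culture, and among the others it was 62.5% and 66.3%. The motif was within 25 bp of the centre in 1 of 6 windows with IL-1β (Runx1 P1) and 1 of 4 in normal culture (Runx1 intron 5), against 39.7% and 44.1% of all windows. None of these windows held 2 motifs, while 11.8% and 14.7% of all windows did. With 100 bp added to each side the motif was in 5 of 6 windows of the Runx loci with IL-1β and 3 of 4 in normal culture, against 78.5% and 80.2% of all windows. These counts are too small to be set apart from the shares of the lists. Every 32 bp word of the member windows occurred 1 time in the genome.

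**Figure D3:**
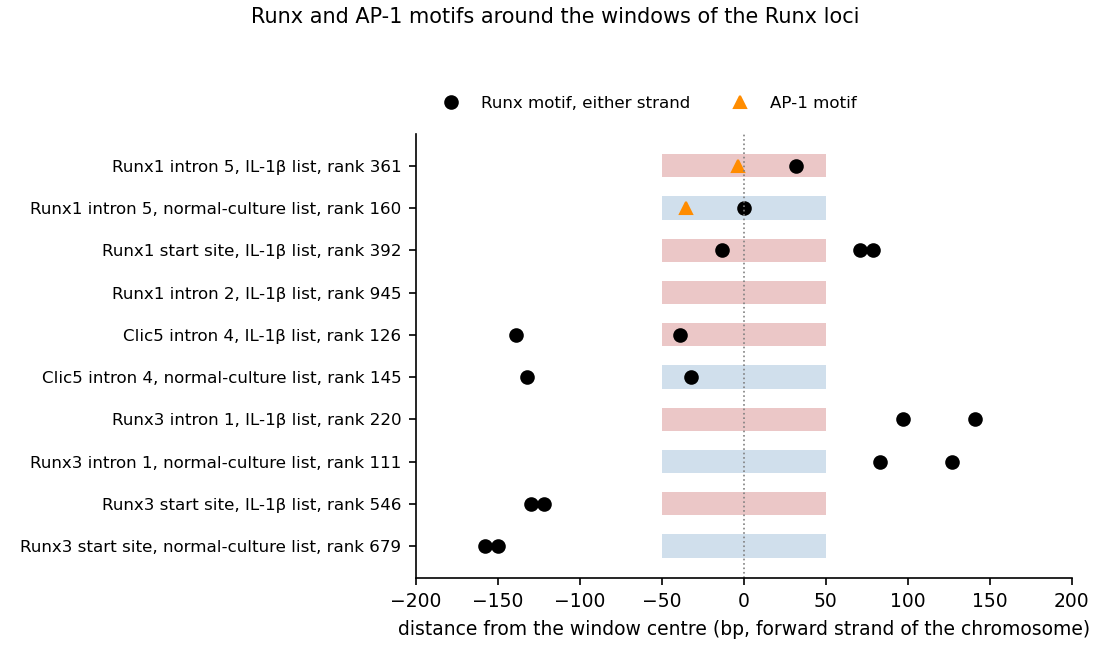
Runx motifs (circles) and AP-1 motifs (triangles) around each window of the Runx loci, as distance from the window centre in bp on the forward strand of the chromosome. Shaded bars are the 100 bp windows, red from the IL-1β list and blue from the normal-culture list: the motifs fall inside the Runx1 intron 5, Runx1 start-site and Clic5 windows and outside the Runx3 windows, and the Runx1 intron 2 window has none within the 200 bp drawn to each side.

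Windows named for other genes lay around the members. Counted together with the members' own windows, there were 6 windows with IL-1β and 5 in normal culture within 500 kb of Runx3. Runx1 had 5 with IL-1β and 2 in normal culture, and Runx2 had 1 in each list. Of these, 2 in each list were named for Runx3 itself. For Runx1 itself, 3 were named with IL-1β and 1 in normal culture. Upstream of Runx3, windows named for the splicing factor gene Syf2 were 175 kb away, at rank 111 with IL-1β and rank 577 in normal culture, and 145 kb away, at ranks 201 and 414. Downstream, a window at the start of Clic4 (another gene of the Clic family) was 94.8 kb away and in the IL-1β list alone, at rank 294.

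The Grhl3 window, 392 kb downstream of Runx3, was at rank 159 with IL-1β and rank 110 in normal culture. Grhl3 encodes a grainyhead-like transcription factor of the epidermis, and the window was in its intron 1, 3.25 kb from its start with IL-1β and 3.21 kb in normal culture. It is shown because it holds a pair of Runx motifs with the same spacing as the pair at P1, in the other orientation and with TGCGGT as the first motif.
Grhl3 intron 1, chr4:135126232-135126375, minus strand: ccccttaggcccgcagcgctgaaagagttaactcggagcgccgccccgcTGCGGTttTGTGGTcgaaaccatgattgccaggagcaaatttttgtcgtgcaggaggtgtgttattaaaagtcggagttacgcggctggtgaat

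A pair with this spacing was present in 0.5% of IL-1β windows (5 windows), in 0.9% of normal-culture windows (9 windows) and in 0.0% of the stretches 1000 bp to each side in either list (Wilson upper limit 0.192%). Fat1, Grhl3 and Sft2d2 were named at such a window in both lists. This was matched by name, so a site that the lists name differently would be missed.

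Upstream of Runx1, windows named for Setd4, which encodes a SET-domain protein, were 413 kb away at rank 327 with IL-1β and rank 710 in normal culture. They did not overlap. A further IL-1β window at rank 585 was 499 kb away.

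The placing of windows was compared between genes. Over the 1332 genes named in either list, 4 classes were compared: a window within 500 bp of the start, or elsewhere in the transcript, in each list. Runx3 was positive in all 4 classes. Runx1 matched Runx3 in 3 classes, lacking the start window in normal culture. No gene matched Runx1 in all 4 classes, 145 matched it in 3, and the best ranked of these were Plxnd1, Fpgs, Ahi1, Mbtd1 and Galk2, whose windows were inside the gene in both lists. A window at the start together with another inside the gene, over both lists, was found in 8 of the 1332 genes, and 712 had neither. The classes rest on the transcript named, which held the window centre for 37.8% of IL-1β windows and 26.2% of normal-culture windows. By the annotation, 2.01% and 1.94% of protein-coding genes had a window inside. The shared Kat6b site was inside the transcript named with IL-1β and outside the one named in normal culture. These class counts can thus reflect naming, and its part in them was not tested.

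Genes whose products work with Runx proteins were looked up in the same lists. Of 42 genes for known Runx partners and regulators, 11 (26.2%) were named with IL-1β and 10 (23.8%) in normal culture, against 4.0% and 4.06% of protein-coding genes. Of these, 9 were named in both lists, where 2.11% of protein-coding genes were, and 12 in either. The share of all genes named in either list was not computed, so the 12 has no background. The share of all genes was not matched for the length of sequence around a gene, which sets how many windows a nearest-gene rule can give it, and its part in these counts was not tested. The partner genes were also chosen with earlier results of these data known. The excess over all genes is therefore not independent of that choice.

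The Groucho family of co-repressors, which Runx proteins recruit, held several of them. Tle1 was named at ranks 43 and 556 with IL-1β and at ranks 98 and 275 in normal culture. The windows at ranks 43 and 98 were a shared site 199 kb beyond its start, while those at ranks 556 and 275, at 231 kb, did not overlap. Tle4 was named at ranks 222, 479, 494 and 766 with IL-1β and at ranks 146 and 385 in normal culture, all outside the gene. Aes, a short family member, had a shared window in intron 3 at rank 289 with IL-1β and rank 296 in normal culture. Tle3 was named in normal culture alone, at ranks 189 and 320, for windows whose nearest gene in the annotation was another.

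Enzymes that modify chromatin or regulate Runx2 came next. Hdac4, a deacetylase that restrains Runx2 in hypertrophy, had a shared window in intron 1 at rank 552 with IL-1β and rank 771 in normal culture. Kat6b, an acetyltransferase listed under its older symbol Myst4, was at rank 48 with IL-1β, and the same site was at rank 282 in normal culture under the name Adk. Crebbp, an acetyltransferase and co-activator, was named at rank 856 with IL-1β and rank 515 in normal culture, at different sites. The normal-culture window was outside the gene, 136 kb from its start, and its nearest gene in the annotation was another. Hivep3, known as Schnurri-3, an adaptor in Runx2 degradation, was named at ranks 719 and 891 with IL-1β and rank 804 in normal culture, at sites that did not overlap.

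Transcription factors and cell cycle genes completed the set. Ccnd1, the cyclin D1 gene, had a shared window in intron 2 at rank 67 with IL-1β and rank 165 in normal culture, and a further one at rank 317 in normal culture. Smad3, which carries TGF-β signals, had a shared window in intron 1 at rank 973 with IL-1β and rank 517 in normal culture. Fos, which encodes a subunit of AP-1, had a shared window 18.3 kb upstream of its start at rank 770 with IL-1β and rank 812 in normal culture. Cebpb was named with IL-1β alone, at rank 570, 88.6 kb from its start. Cbfb, the DNA-binding partner, was named in neither list.

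Known Runx2 target genes were looked up in the same way. Of 21 genes, 3 (14.3%) were named with IL-1β and 4 (19.0%) in normal culture, against 4.0% and 4.06% of protein-coding genes. In both lists 2 were named, where 2.11% of protein-coding genes were, and 5 were named in either, again without a share of all genes. These shares of all genes were not matched for surrounding sequence either, and the target genes too were chosen with earlier results known, as for the partners. Pth1r, the parathyroid hormone receptor gene, had 2 shared windows, at ranks 271 and 872 with IL-1β and at ranks 532 and 840 in normal culture, 24.3 kb and 13.7 kb (IL-1β) or 13.6 kb (normal culture) from its start. Spp1, which encodes osteopontin, had a shared window 28.2 kb upstream of its start, at rank 938 with IL-1β and rank 557 in normal culture. Tnfsf11, which encodes RANKL, was named with IL-1β alone, at rank 996. Fgf18 (rank 315) and Ptch1, a Hedgehog receptor gene (ranks 402 and 707), were named in normal culture alone. The window at rank 402 was 134 kb from the Ptch1 start, and its nearest gene in the annotation was another. The collagenase gene Mmp13 and the hypertrophic collagen gene Col10a1 were named in neither list. Among 8 chondrocyte markers, 4 were named with IL-1β and 5 in normal culture, to be read against the same unmatched shares of 4.0% and 4.06%, but a window does not measure expression and so does not test the cell type.

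**Figure D4:**
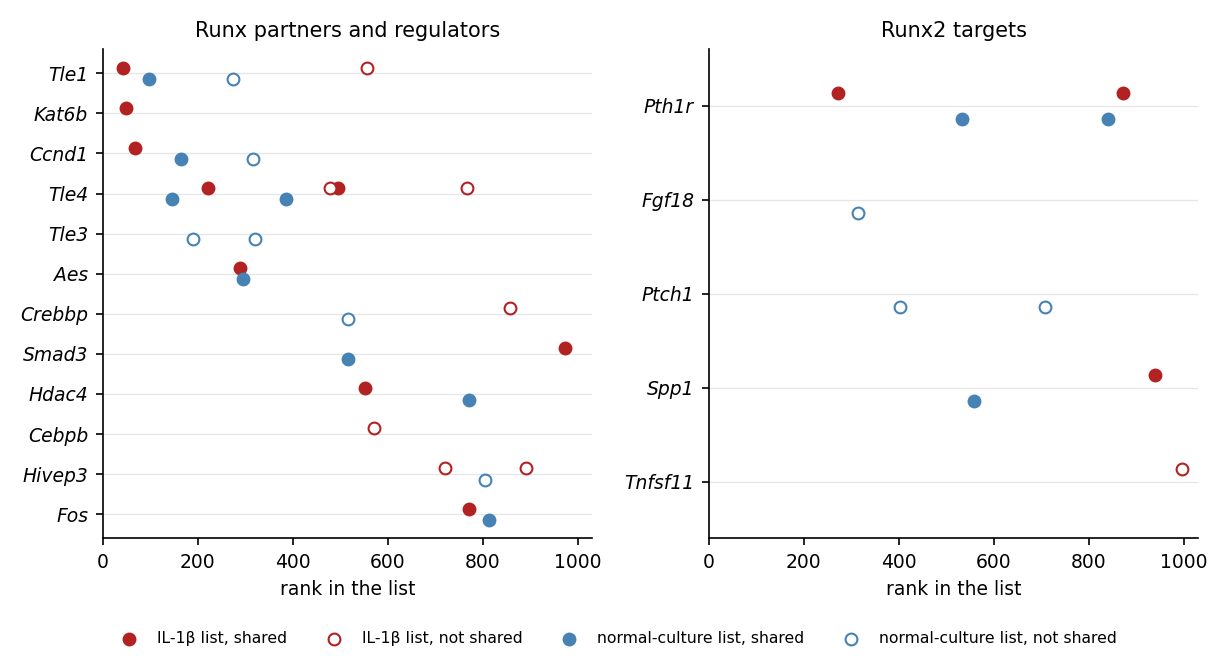
Rank in the list (x axis) of every window named for a gene of the Runx partner list (left) or of the Runx2 target list (right), red for the IL-1β list and blue for normal culture. Filled points overlap a window of the other list and open points do not: Tle1, Kat6b and Ccnd1 have the highest ranks with IL-1β, at 43, 48 and 67.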

How the data were processed

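ChIP-seq windows of Runx2-FLAG were taken from 2 deposited lists, 1 for each condition. Per the labels, reads were aligned to mm9 with Bowtie2 2.2.2, and according to the study's methods the authors called peaks with CisGenome against the input library and kept those under a false discovery rate. The deposited values are of another kind than counts or scores: a window number, chromosome, start and end, and the transcript named beside it. The number was used as the rank. The IgG and input libraries have no list here, and 0 per-sample columns were left unused.

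An overlap of 1 bp made a pair of windows shared. Distances ran from the window centre to the start of the transcript. P1 and P2 are not labelled in GENCODE M1 and were set from its protein-coding transcripts on the same build. P1 was the farthest upstream start, and P2 the first start beyond a set distance downstream of it. Of 1351 deposited transcripts, 89.6% had an M1 transcript with both ends within 1000 bp. Gene symbols were matched through a RefSeq table. Sequences were read from mm9 with pysam 0.24.0, starts taken as counting from 0, and TGYGGT (Y is C or T) was searched on both strands. Shares carry Wilson 95% intervals (statsmodels 0.14.6). The functions were tested on simulated data. The window coordinates are printed as deposited, and other coordinates count from 1.

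The members and gene lists were chosen with earlier results of these data known. The genes named were the Runx genes, each listed partner or target named in either window list, the genes nearest to windows within 500 kb, and up to 5 genes most like a member. Genes named outside this rule, such as Card6, Mmp13 and the genes with a motif pair, were chosen after their values were seen. One result under this rule is not reported here.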

Additional observations from a re-analysis of the deposited data

How the results depend on the processing

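Of 42 alternatives over 14 counts, 29 stayed within 1.5 times the count reported and 13 moved further. Values are given for IL-1β first. Taking the 500 highest-ranked windows of each list gave 3 Runx1 and Runx3 windows with IL-1β, 5 and 5 partner genes, and 1 and 2 target genes. Widening the rule to 500 kb around all 3 genes gave 12 and 8 windows. For Runx2, 100 kb gave 0 and 0 windows and 1000 kb gave 2 and 2. Adding 100 bp to each side gave 5 windows with a Runx motif with IL-1β, and TGTGGT alone gave 1 in normal culture, where the Clic5 motif is TGCGGT. The number of shared windows, at 4 in each list, and of windows at a start was within that range under every alternative tried for them. No paired analysis was possible because each group has 1 library, and no replicate could be left out.

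Depth is unknown, so that a window missing from a list is not shown to be unbound, and ranks of 1 list cannot be turned into signal. The named transcript is not always the nearest one: by M1, 14 partner genes were nearest to a normal-culture window, against 10 named. FLAG windows were not set against the IgG libraries here. The labels give the IL-1β dose per µL and the study's methods give it per mL, and it entered no value.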

Other observations

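The neighbours of the Runx genes are themselves related, and this set was chosen after the values were seen. Clic4, Clic5 and Clic6, of the chloride intracellular channel family, lie 36.0, 216 and 60.2 kb from Runx3, Runx2 and Runx1, in that order. Clic5 had a window inside in both lists (rank 126 with IL-1β, rank 145 in normal culture). Clic4 had one at its start with IL-1β (rank 294) and none in normal culture. Clic6 had none, and its closest window was 113 kb away, in Runx1. Rcan1, Rcan2 and Rcan3, regulators of calcineurin, lie 135, 456 and 234 kb from Runx1, Runx2 and Runx3, in that order, and held 0 windows in either list. Of all protein-coding genes of the annotation, 2.01% had a window inside in the IL-1β list and 1.94% in the normal-culture list. A gene with 0 windows was thus the common case, and the difference between the Clic and Rcan genes was not tested.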
